A study of Homo sapiens with 21 samples.

Results

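Transcripts of 9 interferon-induced genes were followed in cultured human cells after 24 h with coumarin, a benzopyrone made by plants. IFIT1, IFIT2, IFIT3, ISG15, MX1, OAS1, IFI6, IRF1 and IRF9 were chosen by gene name from the 58735 rows of the deposited count table, and all 9 were among the 16699 genes with enough counts to be tested. The cells carry the label HepG2, a human liver tumour line, and no genotype beyond the line is given. Each of 7 groups had 3 libraries from what the labels state are biological replicates: an untreated control at 0 µM and coumarin at 0.001, 0.01, 0.1, 1, 10 or 100 µM. Every group was kept in serum-free DMEM during the exposure, coumarin was diluted from a stock in DMEM, and cells of every group were detached with trypsin before RNA was taken up on poly(dT) beads. Control and treated cells differed only in the coumarin added, as far as the labels say.

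Interferons are secreted proteins that warn cells of infection. Type I and type III interferons bind receptors whose kinases JAK1 and TYK2 phosphorylate STAT proteins, which join IRF9 to form a complex that binds interferon-stimulated response elements (ISRE) in promoters. Type II interferon acts through STAT dimers at gamma-activated sites (GAS), and IRF1 is a known target. The IFIT proteins bind foreign RNA and block its translation, ISG15 is a ubiquitin-like protein that is attached to other proteins, MX1 is a GTPase that traps viral nucleocapsids, OAS1 makes the 2′-5′-linked oligoadenylates that activate RNase L, and IFI6 is a small membrane protein. Many of these genes also have a low level of transcription in cells that have met no interferon.

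The promoters of IFIT1, IFIT3, IFI6, ISG15 and IRF1 are shown because these sequences hold the letters through which the interferon complexes are known to act, and because IFIT1, IFIT3 and IFI6 fell at the highest dose while ISG15 and IRF1 did not pass the test. They are RefSeq sequences of GRCh38.p14, the 200 bases just before each annotated start, written 5′ to 3′ on the strand of the gene. IFIT1 is from chr10:89392423-89392622 (plus strand) and IFIT3, at its first annotated start, from chr10:89327797-89327996 (plus strand). IFI6 is from chr1:27672193-27672392 (minus strand), ISG15 from chr1:1013297-1013496 (plus strand) and IRF1 from chr5:132490774-132490973 (minus strand). At 100 µM the log2 changes of IFI6 (-0.33, edgeR adjusted p = 0.0351) and IRF1 (-0.33, edgeR adjusted p = 0.0824) were alike. The calls alone thus do not set these 2 genes apart. Capitals mark 2 GAAA runs separated by 2 bases, on either strand (an ISRE-type match), and in IRF1 a match to TTCNNNGAA (a GAS-type match, the same on both strands).
IFIT1: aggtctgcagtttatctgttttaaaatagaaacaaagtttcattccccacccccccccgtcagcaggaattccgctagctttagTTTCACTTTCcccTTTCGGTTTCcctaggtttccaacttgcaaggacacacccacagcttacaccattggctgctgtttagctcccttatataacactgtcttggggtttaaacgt
IFIT3: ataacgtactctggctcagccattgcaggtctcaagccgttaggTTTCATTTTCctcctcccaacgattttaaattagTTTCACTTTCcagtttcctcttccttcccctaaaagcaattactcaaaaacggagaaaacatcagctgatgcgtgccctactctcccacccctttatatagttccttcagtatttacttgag
IFI6: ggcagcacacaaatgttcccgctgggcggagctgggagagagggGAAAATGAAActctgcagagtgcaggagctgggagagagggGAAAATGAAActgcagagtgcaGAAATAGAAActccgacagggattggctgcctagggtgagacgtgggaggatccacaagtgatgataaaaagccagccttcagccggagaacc
ISG15: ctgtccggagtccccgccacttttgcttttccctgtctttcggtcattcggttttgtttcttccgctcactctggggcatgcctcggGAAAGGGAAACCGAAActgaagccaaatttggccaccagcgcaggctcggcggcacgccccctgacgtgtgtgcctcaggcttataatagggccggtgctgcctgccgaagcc
IRF1: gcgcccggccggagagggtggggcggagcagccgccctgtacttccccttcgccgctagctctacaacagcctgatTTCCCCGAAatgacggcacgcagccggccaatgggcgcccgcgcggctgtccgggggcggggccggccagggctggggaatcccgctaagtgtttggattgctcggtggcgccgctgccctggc

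A promoter window, from 250 bases before to 50 after the start, was found for 8 of the 9 genes (11 windows, since some genes have several starts). IFIT2 had no window in the reference used, so its promoter was not searched. An ISRE-type match was present in 5 genes: IFIT1, IFIT3, IFI6, ISG15 and MX1. Only a gap of 2 bases was searched, and the OAS1 window holds 2 GAAA runs separated by 1 base, which were not counted. IFIT1 had 2 matches, at -116 to -107 and -103 to -94 (the base just before the start is -1), and IFI6 had 3. The 2 matches of ISG15 overlap, at -113 to -104 and -107 to -98, so that 1 GAAA run serves both. Of all 35116 windows searched, 1255 (3.57%) held an ISRE-type match. A GAS-type match was present in IRF1 (-124 to -116), OAS1, IRF9 and MX1, and in 2689 of all windows (7.66%). Both shares are of single windows, while a gene is counted here if any of its windows holds a match. In the third MX1 window the ISRE-type and GAS-type matches overlap. These matches describe letters and not binding. IFIT3, IFI6 and ISG15 all hold 2 or more ISRE-type matches, and the first 2 fell at 100 µM while ISG15 did not pass the test.

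Some facts of the series bear on every value below. Gene counts totalled 26984563 to 43375429 per library, and edgeR's common estimate of the variation among replicates was 4.49%. A library total was worked back from the deposited counts and FPKM. The summed gene counts were below this total by 3.91%, 8.03% and 8.17% of it in control replicates 1, 2 and 3. In treated libraries they were below it by 1.04% to 5.43%. What makes up this difference is not given in the sources used here. The part of this difference in the results was not tested, so the 12 libraries at 0.001 to 1 µM were also used as a reference that holds no control. The labelled cell type was checked against 17 hepatocyte genes: ALB, APOC3, TTR, FGB and RBP4 had 0 counts in all 21 libraries, no gene of the list reached 1 CPM (counts scaled to the TMM-adjusted library total) in any library, and the list summed to at most 0.449 CPM. These values go against the hepatocyte-like cell type that the label implies. Epithelial markers summed to 4330 to 4830 CPM in control and 3450 to 3540 CPM at 100 µM, mostly from KRT8, KRT18 and KRT7. In the same list EPCAM had at most 1 count in a library, and KRT19 and CDH1 reached at most 0.139 and 0.401 CPM. Fibroblast markers summed to 1290 to 1350 and 1070 to 1110 CPM, mostly from COL3A1. Of these, PDGFRA was at 0, COL1A2 had at most 1 count in a library, and LUM and DCN averaged 0.562 and 1.53 CPM. Neither list was thus expressed as a whole. Of 10 leukocyte genes, which include markers of the cells that make most interferon, 3 had 0 counts throughout, and the list summed to 3.74 to 4.41 CPM in control and 2.99 to 4.88 CPM at 100 µM, nearly all from CSF1R. The 5 endothelial genes summed to 1.90 to 2.90 and 1.46 to 1.87 CPM. The part of these markers in the results below was not tested, and in bulk RNA fewer cells that express a gene and less RNA per cell cannot be told apart.

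All 9 genes were expressed at low levels. Compared per gene length, as deposited FPKM averaged over the 21 libraries, IFI6 was highest at 6.85 (5.13 to 8.74) and ISG15 next at 4.64 (3.77 to 5.72). IFIT1 followed at 1.69 FPKM, IFIT2 at 1.06, IFIT3 at 0.842, IRF1 at 0.577 and IRF9 at 0.341. OAS1 (0.0542 FPKM) and MX1 (0.0452 FPKM) were lowest. Each gene lay above the next in 20 or 21 of 21 libraries, except OAS1 and MX1: OAS1 was above MX1 in only 14, so these neighbours did not differ beyond their spread. MX1 had 5 to 27 counts per library and OAS1 1 to 21, and a count of 3 corresponds to 0.0692 to 0.111 CPM. Among other interferon-induced effectors, the membrane-anchored restriction factor BST2 had a mean of 304 FPKM and the membrane protein gene IFITM3 had 124 FPKM. Both were chosen here as high after their values were seen, and they do not stand for the rest. Of 56 such effectors listed, 27 had a mean of at least 1 CPM, as did 7 of the 9 genes. RSAD2 averaged 0.00638 FPKM, and CMPK2 had 0 counts in all libraries.

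At 100 µM, 4 of the 9 genes fell against control, IFIT1, IFIT2, IFIT3 and IFI6, and none rose (edgeR quasi-likelihood test, Benjamini-Hochberg adjusted over all genes tested, threshold 0.05, as in all tests below). Of all genes tested, 27.3% changed at this dose, 12.9% lower and 14.4% higher. The median log2 change was -0.33 over the 9 genes and -0.01 over all genes tested. The first is the value of IRF1, which did not pass and was -0.11 without control replicate 1. Summed over the 9 genes, the level was 33.9 to 36.5 CPM in the 3 control libraries and 26.7 to 26.8 CPM in the 3 at 100 µM. With upper-quartile scaling, 41.4% of the genes called at 100 µM were higher, against 52.9% with TMM, and the count of members stayed at 4 lower and 0 higher.

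**Figure D1:**
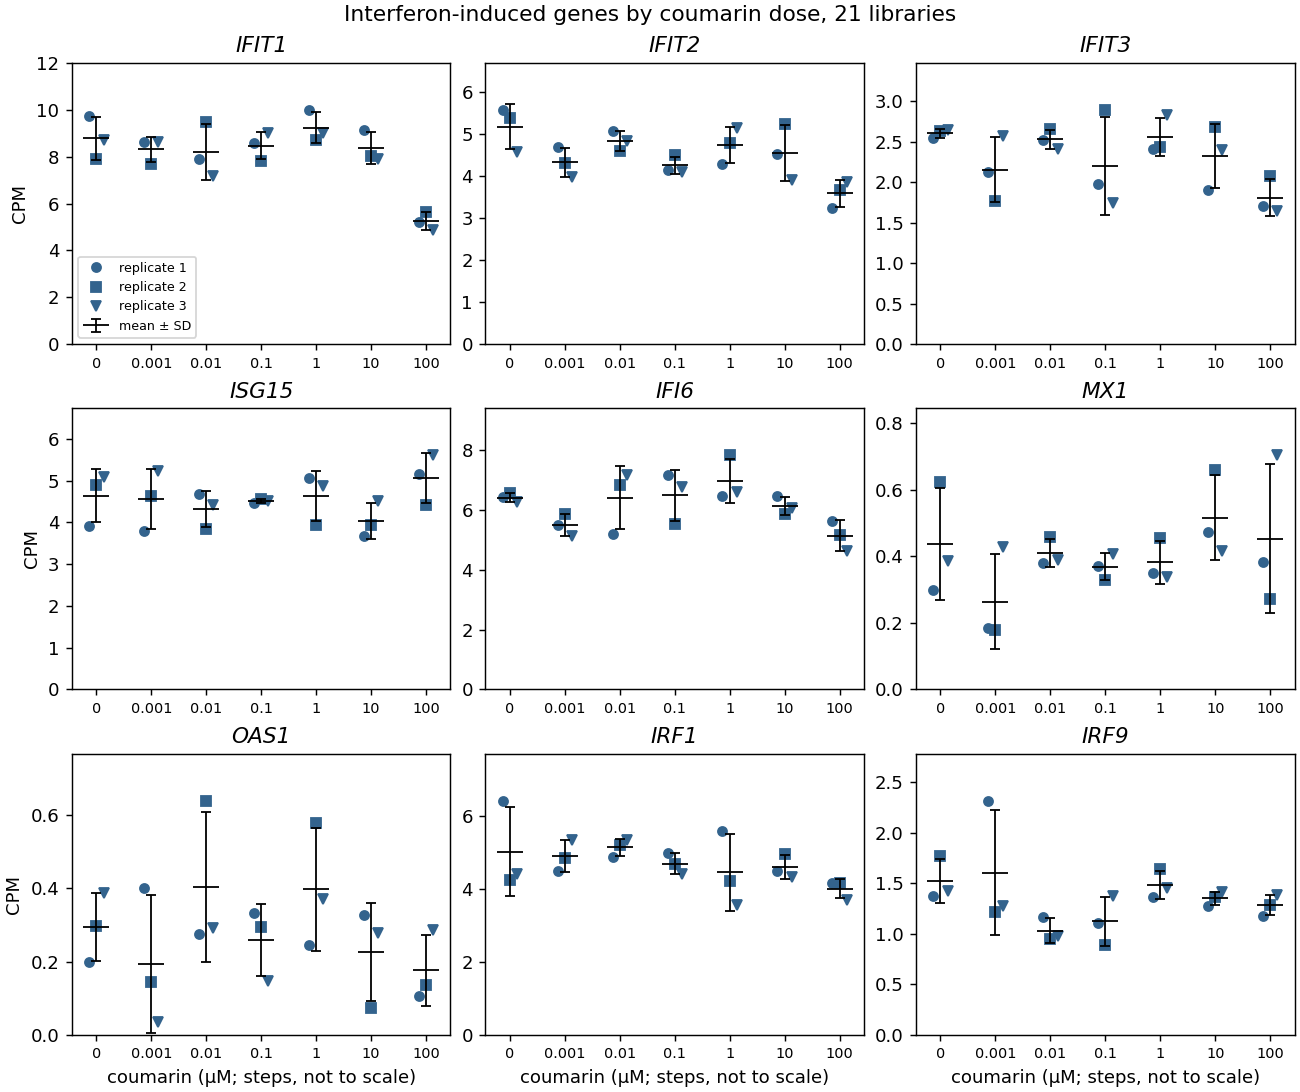
CPM of each gene (vertical axis, from 0, its own scale for each gene) against coumarin dose (µM, equal steps, not to scale) in 21 libraries; symbols are replicates and bars are mean ± SD (n = 3). The 3 libraries at 100 µM lie below the other 18 for IFIT1 and IFIT2, while those of ISG15, MX1, OAS1 and IRF9 overlap the controls.

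IFIT1 (ENSG00000185745, GRCh38 chromosome 10, 89392546 to 89406486, plus strand), whose protein binds the 5′ end of foreign RNA, changed most clearly. Control libraries had 9.72, 7.92 and 8.71 CPM, and libraries at 100 µM had 5.23, 5.64 and 4.88 CPM. All 3 libraries at 100 µM lay below the other 18, and no other dose was set apart. The 3 libraries had 8.65, 7.71 and 8.62 CPM at 0.001 µM, 7.90, 9.5 and 7.16 at 0.01 µM, and 8.58, 7.84 and 9 at 0.1 µM. At 1 µM they had 10.0, 8.73 and 9 CPM, and at 10 µM 9.15, 8.05 and 7.89. These 15 libraries covered the range of the controls on both sides. From 8.78 ± 0.901 to 5.25 ± 0.38 CPM (SD, n = 3), IFIT1 fell 1.68-fold at 100 µM (log2 change -0.75, SE 0.11, 95% interval -0.96 to -0.53, edgeR adjusted p = 7.79e-07). Against the 12 libraries at 0.001 to 1 µM the log2 change was -0.71 (edgeR adjusted p = 2.23e-08), nearly the same size.

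IFIT2 (ENSG00000119922, chromosome 10, 89283694 to 89309276, plus strand), a paralog that also promotes cell death, had 5.58, 5.39 and 4.58 CPM in control and 3.24, 3.67 and 3.86 CPM at 100 µM. Again the 3 libraries at 100 µM lay below all of the other 18, though the lowest of these, 3.90 CPM at 10 µM, came close. The libraries had 4.69, 4.31 and 3.99 CPM at 0.001 µM, 5.07, 4.6 and 4.85 at 0.01 µM, and 4.16, 4.50 and 4.11 at 0.1 µM. At 1 µM the values were 4.30, 4.80 and 5.15 CPM, and at 10 µM 4.52, 5.25 and 3.90. Libraries at 0.1 µM were all below the controls without passing the test (log2 change -0.28, edgeR adjusted p = 0.18). At 100 µM IFIT2 fell 1.44-fold from 5.18 ± 0.529 to 3.59 ± 0.317 CPM (log2 change -0.52, SE 0.12, 95% interval -0.77 to -0.27, edgeR adjusted p = 0.00126). Against 0.001 to 1 µM the log2 change was smaller at -0.33 and still passed (edgeR adjusted p = 0.00888).

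IFIT3 (ENSG00000119917, chromosome 10, 89327894 to 89340971, plus strand), which binds IFIT1 and stabilises it, had 2.54, 2.63 and 2.64 CPM in control and 1.71, 2.07 and 1.64 CPM at 100 µM. The 2 groups did not overlap, but 4 of the 15 libraries at doses between had values at or below the highest library at 100 µM. These libraries had 2.13, 1.76 and 2.57 CPM at 0.001 µM, 2.52, 2.65 and 2.41 at 0.01 µM, and 1.97, 2.89 and 1.74 at 0.1 µM. At 1 µM they had 2.41, 2.43 and 2.83 CPM, and at 10 µM 1.90, 2.68 and 2.40. The replicates at 0.1 µM spread from below the 100 µM mean to above every control. IFIT3 fell 1.45-fold at 100 µM, from 2.60 ± 0.0579 to 1.81 ± 0.231 CPM (log2 change -0.53, SE 0.18, 95% interval -0.89 to -0.17, edgeR adjusted p = 0.022). The call was lost without control replicate 2 (edgeR adjusted p = 0.0542), control replicate 3 (0.0606), 100 µM replicate 1 (0.0676) or 100 µM replicate 3 (0.102).

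IFI6 (ENSG00000126709, chromosome 1, 27666061 to 27672218, minus strand), a mitochondrial and endoplasmic reticulum membrane protein, had 6.44, 6.57 and 6.26 CPM in control and 5.65, 5.16 and 4.62 CPM at 100 µM. Libraries at 100 µM lay below every control, but the 3 at 0.001 µM, at 5.50, 5.88 and 5.13 CPM, did so as well. The values were 5.21, 6.85 and 7.19 CPM at 0.01 µM and 7.17, 5.55 and 6.78 at 0.1 µM. At 1 µM they were 6.47, 7.84 and 6.62 CPM, and at 10 µM 6.46, 5.88 and 6.07. The group means went from 5.50 CPM at 0.001 µM through 6.42 and 6.50 to 6.98 CPM at 1 µM, and were 6.13 CPM at 10 µM. None of these doses was called against control. IFI6 fell 1.26-fold at 100 µM, from 6.42 ± 0.158 to 5.14 ± 0.514 CPM (log2 change -0.33, SE 0.12, 95% interval -0.57 to -0.09, edgeR adjusted p = 0.0351), and its log2 change against 0.001 to 1 µM was -0.31 (edgeR adjusted p = 0.0109). The call was lost when control replicate 1, 2 or 3 or 100 µM replicate 2 or 3 was left out (edgeR adjusted p 0.0606 to 0.173) and with DESeq2 (adjusted p = 0.059).

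ISG15 (ENSG00000187608, chromosome 1, 1001138 to 1014540, plus strand) did not pass the test, with 3.91, 4.90 and 5.10 CPM in control and 5.16, 4.41 and 5.61 CPM at 100 µM. The 2 groups overlapped. Over the other doses ISG15 ranged from 3.68 CPM (10 µM) to 5.24 CPM (0.001 µM), and at 0.1 µM the libraries were nearly alike at 4.46, 4.56 and 4.52 CPM. The log2 change at 100 µM was 0.13 with a 95% interval of -0.13 to 0.40 (edgeR adjusted p = 0.496). It ranged from 0.03 without control replicate 1 to 0.21 without 100 µM replicate 2, and was 0.38 with control replicate 1 as the only control, without passing in any of these (edgeR adjusted p 0.209 to 0.923). The interval does not reach the log2 change of IFIT1 or IFIT2. The difference between ISG15 and these genes was not itself tested.

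MX1 (ENSG00000157601, chromosome 21, 41420304 to 41459214, plus strand) had 0.300, 0.624 and 0.387 CPM in control and 0.383, 0.272 and 0.704 CPM at 100 µM, from 9, 19 and 12 counts against 11, 8 and 27. The groups overlapped fully, and the log2 change of 0.10 had a 95% interval of -0.67 to 0.87 (edgeR adjusted p = 0.88). Without control replicate 1 it was -0.11, and without 100 µM replicate 3 it was -0.42, so no direction can be given. OAS1 (ENSG00000089127, chromosome 12, 112906777 to 112933222, plus strand) had 0.200, 0.296 and 0.387 CPM in control and 0.105, 0.136 and 0.287 CPM at 100 µM, from 6, 9 and 12 counts against 3, 4 and 11. The log2 change of -0.67 had a 95% interval of -1.86 to 0.51 (edgeR adjusted p = 0.428). Without 100 µM replicate 3 it was -1.27, without control replicate 3 it was -0.42, without 100 µM replicate 1 it was -0.43, and with control replicate 1 as the only control it was -0.12, none of which passed. The interval of OAS1 includes changes larger than that of IFIT1, and that of MX1 reaches nearly as low, so falls like those of IFIT2 and IFIT3 were not detectable for either gene at this depth.

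Among the regulators, IRF1 (ENSG00000125347, chromosome 5, 132481609 to 132490798, minus strand), a transcription factor that acts on interferon and antigen presentation genes, had 6.41, 4.24 and 4.39 CPM in control and 4.15, 4.14 and 3.70 CPM at 100 µM. The 3 libraries at 100 µM lay just below all controls, and control replicate 1 was the highest of the 21 libraries. The other libraries had 4.48, 4.84 and 5.34 CPM at 0.001 µM, 4.87, 5.18 and 5.34 at 0.01 µM, and 4.98, 4.66 and 4.41 at 0.1 µM. At 1 µM they had 5.59, 4.20 and 3.54 CPM, and at 10 µM 4.49, 4.96 and 4.31. The lowest of all 21 was thus at 1 µM. The log2 change at 100 µM was -0.33 (SE 0.14, 95% interval -0.62 to -0.04) and did not pass (edgeR adjusted p = 0.0824). With control replicate 1 as the only control the log2 change was -0.69 (edgeR adjusted p = 0.00588), without control replicate 2 it was -0.44 (edgeR adjusted p = 0.035), and without control replicate 1 it was -0.11 (edgeR adjusted p = 0.622), so the call turned on single control libraries.

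IRF9 (ENSG00000213928, chromosome 14, 24161053 to 24166565, plus strand), the DNA-binding subunit of the complex that binds ISRE, had 1.37, 1.77 and 1.42 CPM in control and 1.18, 1.29 and 1.38 CPM at 100 µM. The groups overlapped by 1 library. At 0.01 µM the 3 libraries, at 1.17, 0.944 and 0.976 CPM, lay below all controls (log2 change -0.56, 95% interval -1.03 to -0.10, edgeR adjusted p = 0.156), and at 0.001 µM replicate 1 was the highest of all at 2.32 CPM. The log2 change at 100 µM was -0.24 against control (95% interval -0.68 to 0.21, edgeR adjusted p = 0.472) and 0.000636 against 0.001 to 1 µM (95% interval -0.36 to 0.36). IRF9 had 27 to 75 counts per library.

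**Figure D2:**
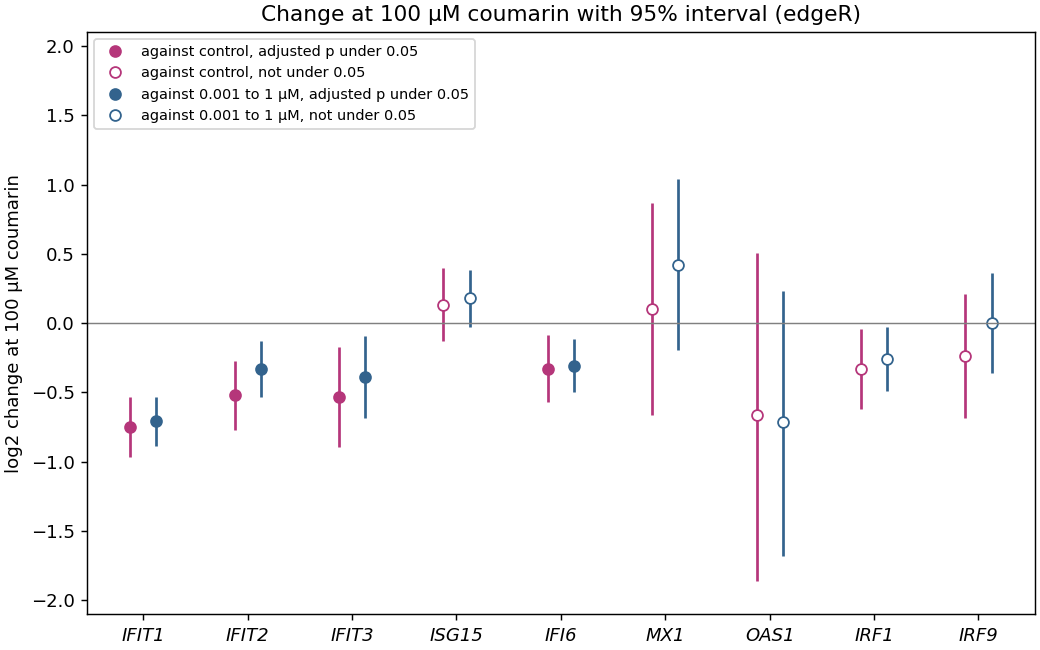
log2 change at 100 µM coumarin for each gene against the 3 control libraries (magenta) and against the 12 libraries at 0.001 to 1 µM (blue); points are edgeR estimates, lines are 95% intervals and filled points have an adjusted p under 0.05. IFIT1, IFIT2, IFIT3 and IFI6 are filled under both references, and IRF9 moves from -0.24 to 0.000636.

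With the 12 libraries at 0.001 to 1 µM as reference, 4 of 9 genes fell again, and they were IFIT1, IFIT2, IFIT3 (log2 change -0.39, edgeR adjusted p = 0.0346) and IFI6. Of all genes tested, 33.1% changed in that comparison. Both comparisons share the 3 libraries at 100 µM, so the values are not independent. The 3 libraries at 100 µM lay below all 3 controls for 5 of 9 genes (IFIT1, IFIT2, IFIT3, IFI6 and IRF1), which holds for 19.9% of all genes tested. They lay below all of the other 18 libraries for IFIT1 and IFIT2, 2 of 9 genes, against 8.07% of all genes tested.

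Below 100 µM none of the 9 genes passed the test. At 0.001 µM 0 of 9 were called (1, IFIT2, at an unadjusted p under 0.05), against 1.53% of all genes tested, and at 0.01 µM 0 of 9 (1, IRF9), against 5.86%. At 0.1 µM 0 of 9 were called (1, IFIT2), against 6.45%. At 1 µM 0 of 9 were called (0 unadjusted), against 2.01%, and at 10 µM 0 of 9 (0 unadjusted), against 2.62%. DESeq2 and limma on the deposited FPKM also called 0 members at each of these 5 doses. At such background shares, 0 of 9 says little about the members. The IFIT1 intervals were narrow at these doses: the log2 change was -0.07, -0.10, -0.05, 0.07 and -0.08 at 0.001, 0.01, 0.1, 1 and 10 µM, and no 95% interval reached below -0.303, so that none included the value at 100 µM. All of these comparisons share the same 3 control libraries.

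**Figure D3:**
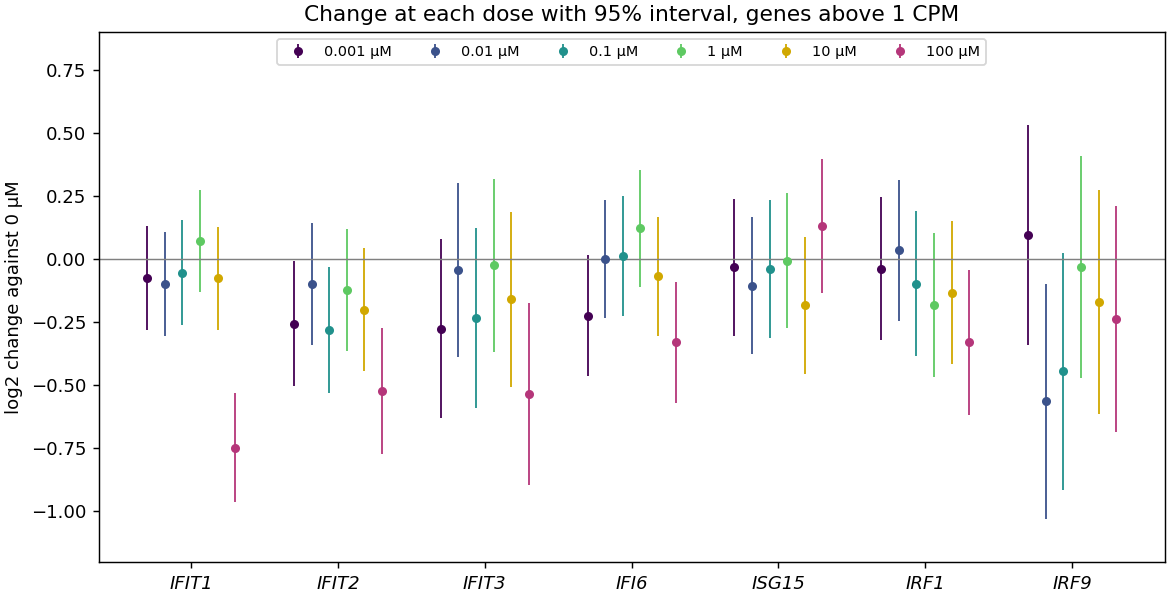
log2 change against 0 µM at each dose (colours) for the 7 genes with a mean above 1 CPM; points are edgeR estimates and lines 95% intervals. For IFIT1 the interval at 100 µM (-0.96 to -0.53) lies apart from those of the other doses, while for ISG15, IRF1 and IRF9 the intervals of all doses overlap.

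The test of all 7 groups at once called IFIT1 (edgeR adjusted p = 2.54e-06), IFIT2 (0.0248) and IFI6 (0.0325), 3 of 9, against 30.0% of all genes tested. IFIT3 did not pass (edgeR adjusted p = 0.15). Without 100 µM replicate 2 only IFIT1 was called. The mean of the 6 treated groups against control called 0 of 9 genes, against 8.43% of all genes tested, with 2 at an unadjusted p under 0.05 (IFIT1 and IFIT2). Its log2 change was negative for all 9 genes, which share the controls, with IFIT2 at -0.25 (edgeR adjusted p = 0.0873). The slope on log10 dose in the 18 treated libraries called 0 of 9 genes, against 21.5% of the 16522 genes tested there, with 3 at an unadjusted p under 0.05. These were IRF1 at -0.06 per 10-fold dose (edgeR adjusted p = 0.0532), IFIT1 at -0.08 (0.0858) and MX1 at 0.14 (0.134). DESeq2 called IFIT1 and IRF1 along dose. Most of the IFIT1 difference among treated libraries lay between 10 and 100 µM, where the group mean went from 8.36 to 5.25 CPM.

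Neither the counter nor its strand setting is given in the sources used here. IFIT1, IFIT2 and IFIT3 lie beside each other on chromosome 10 and are alike in sequence. Reads shared between them may have been split or dropped. LIPA, the gene of lysosomal acid lipase, overlaps all 3 on the opposite strand and had 2063 to 3720 counts per library. It fell as well at 100 µM, from 88.1 ± 3.05 to 72.1 ± 0.37 CPM (log2 change -0.29, edgeR adjusted p = 4.21e-06), less than IFIT1. Reads of LIPA and of these 3 IFIT genes cannot be told apart without strand. IFIT5, a further IFIT gene on chromosome 10, belongs to the list of other effectors. Its level was 25.1 ± 0.862 CPM in control and 24.3 ± 0.439 CPM at 100 µM, with overlapping ranges (24.2 to 25.9 and 23.9 to 24.8 CPM). The test of all 7 groups did not call IFIT5 (edgeR adjusted p = 0.837). The falls of IFIT1, IFIT2 and IFIT3 thus do not stand for every IFIT gene on this chromosome. IRF1 overlaps C5orf56 (4 to 29 counts; log2 change -1.28, edgeR adjusted p = 0.0116) and IRF9 overlaps AL136295.5 (12 to 36 counts; log2 change 0.15, edgeR adjusted p = 0.754), the latter on the same strand, so IRF9 counts are uncertain. IFIT2 also overlaps AL353751.1, with 1 to 22 counts, on its own strand. For ISG15, MX1, OAS1 and IFI6, overlapping genes had at most 5 counts.

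The ratio of IFIT1 to IFIT2 CPM was 1.74, 1.47 and 1.90 in control and 1.61, 1.54 and 1.26 at 100 µM, and that of IFIT1 to IFIT3 was 3.83, 3.01 and 3.29 against 3.06, 2.72 and 2.97. Both ratios overlapped between the groups, and neither was tested. As a description over 21 libraries, which share depth and scaling with each gene, Pearson's r of log2 CPM was 0.59 for IFIT1 with IFIT2, 0.51 for IFIT1 with IFIT3 and 0.64 for IFIT2 with IFIT3. After the group means were removed r was -0.19, -0.10 and 0.19. Counting error alone gives a coefficient of variation of 6.36% for IFIT1, 8.51% for IFIT2 and 11.9% for IFIT3, a large part of the variation within groups. These r therefore cannot show whether the 3 genes vary together among replicates. Within groups the coefficient of variation was 9.31% for IFIT1, 9.37% for IFIT2, 11.9% for ISG15, 10.5% for IFI6, 14.8% for IFIT3, 14.2% for IRF1 and 20.6% for IRF9. It was 32.7% for MX1 and 52.9% for OAS1, where counting error alone gives 28.3% and 33.8%.

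Among 13297 other genes with a mean of at least 1 CPM, those whose log2 CPM followed IFIT1 most closely over the 21 libraries were TCIM, TPM1 and ANXA3, each with r = 0.922. TPM1 encodes a tropomyosin and ANXA3 an annexin. The nearest to IFIT2 was KTN1 (r = 0.859), to IFIT3 AL118506.1 (0.781) and to IFI6 AP001453.2 (0.822). The nearest to ISG15 was UCKL1-AS1 (0.74), to IRF1 CRTAP (0.764), to IRF9 CCDC18-AS1 (0.711), to MX1 IPPK (0.721) and to OAS1 C1RL (0.679).  Each value is the highest of 13297 over libraries that share their depth, and serves as a description only.

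Interferon transcripts themselves were nearly absent. Of 22 interferon ligand genes, 12 had 0 counts in all 21 libraries, among them IFNG, the type II interferon, and 1, IFNE, an interferon of epithelia, was tested. IFNB1, the type I interferon that most cells make first, had 1 count in all libraries together. In control libraries 22 to 29 reads of IFNE were counted, and 7 to 20 at 100 µM (0.81 ± 0.124 and 0.473 ± 0.219 CPM; log2 change -0.76, edgeR adjusted p = 0.0931). Against 0.001 to 1 µM its log2 change was 0.04 (edgeR adjusted p = 0.93). For a gene at 0 counts, up to 3 counts in a library remain possible, the same 0.0692 to 0.111 CPM as above.

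Of 12 genes for receptors, kinases and STATs, 4 fell at 100 µM, where 12.9% of all genes tested fell. STAT2, the partner of IRF9, fell from 39.3 ± 1.32 to 32.7 ± 0.66 CPM (log2 change -0.26, edgeR adjusted p = 0.000129) and STAT3 from 268.0 ± 6.15 to 221.0 ± 2.58 CPM (-0.28, 8.14e-07). Of the receptor chains, IFNAR1, for type I interferon, fell from 64.5 ± 1.06 to 57.3 ± 1.04 CPM (-0.17, edgeR adjusted p = 0.0044), and IFNGR1, for type II, fell from 23.5 ± 0.709 to 20.2 ± 0.648 CPM (-0.22, 0.00464). IFNLR1, for type III interferon, rose from 1.15 ± 0.27 to 1.70 ± 0.123 CPM (log2 change 0.56, edgeR adjusted p = 0.0299), a call lost against 0.001 to 1 µM (log2 change 0.28, edgeR adjusted p = 0.155). JAK1 (log2 change -0.09), IL10RB (-0.38), TYK2 (0.05), JAK2 (0.07), IFNAR2 (-0.11) and IFNGR2 (0.04) did not pass. STAT3 moved both ways, with a rise of 0.17 at 0.01 µM (edgeR adjusted p = 0.00413) and of 0.17 at 0.1 µM (0.0041).

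Of 10 feedback inhibitors, 5 rose and 2 fell at 100 µM, with a median log2 change of 0.11. Of all genes tested, 14.4% rose and 12.9% fell at this dose. USP18, a protease that removes ISG15 from proteins and blocks the type I receptor, rose from 2.73 ± 0.543 to 4.29 ± 0.241 CPM (log2 change 0.65, edgeR adjusted p = 0.00166), although USP18 has near-identical copies that make its counts uncertain. Against 0.001 to 1 µM its log2 change was 0.38 (edgeR adjusted p = 0.011). CISH and SOCS1, cytokine signalling suppressors, rose by 1.53 and 1.2 on the log2 scale (edgeR adjusted p = 0.00356 and 0.0143), from 6 to 10 and 8 to 11 counts per control library to 19 to 26 and 21 to 25. The phosphatase genes PTPN11 (0.21) and PTPN1 (0.14) rose less, PTPN1 without a call against 0.001 to 1 µM (log2 change 0.00235, edgeR adjusted p = 0.971), and the STAT inhibitor PIAS1 fell by 0.17 on the log2 scale (edgeR adjusted p = 0.0249). This list held genes that changed in both directions, and CISH and SOCS1 rest on few counts.

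Of 12 interferon regulatory factor genes, 8 were tested, and at 100 µM 1 rose and 2 fell, against 14.4% and 12.9% of all genes tested. IRF3, which switches on interferon genes after infection, fell from 66.1 ± 2.54 to 58.4 ± 1.34 CPM (log2 change -0.18, edgeR adjusted p = 0.0018). The other genes called encode proteins that bind IRF2 or resemble those that do: IRF2BP1 rose by 0.27 (edgeR adjusted p = 0.00108) and IRF2BPL fell by 0.67 on the log2 scale (6.42e-12). Against 0.001 to 1 µM the 2 falls were called again, and IRF2BP1 was not (log2 change 0.09, edgeR adjusted p = 0.164). IRF1 and IRF9 belong to this list too and did not pass. Among 15 genes of nucleic acid sensing, 10 were tested, 3 rose and 1 fell, against the same shares of all genes tested. The ubiquitin ligase gene TRIM25 rose from 113.0 ± 3.65 to 157.0 ± 1.40 CPM (log2 change 0.48, edgeR adjusted p = 3.47e-13), TICAM1, the adaptor of TLR3, rose by 0.30 (2.69e-05) and TRAF3 by 0.23 (0.000535). The call for TICAM1 was lost against 0.001 to 1 µM (log2 change 0.06, edgeR adjusted p = 0.312). TMEM173, which encodes the DNA-sensing adaptor STING, fell from 12 ± 0.268 to 8.28 ± 0.928 CPM (-0.54, edgeR adjusted p = 1.47e-06).

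Among 56 other interferon-induced effectors, 34 were tested, and 4 rose and 6 fell at 100 µM, against 14.4% and 12.9% of all genes tested. Against 0.001 to 1 µM, 3 rose and 10 fell, where 33.1% of all genes tested changed in either direction. The median log2 change against control was -0.01, the same as over all genes tested to 2 decimals, and it was -0.01 against 0.001 to 1 µM as well. TRIM14, a signalling adaptor, rose from 63.1 ± 0.45 to 77.1 ± 1.17 CPM (log2 change 0.29, edgeR adjusted p = 1.03e-06), and the RNA-editing enzyme gene ADAR rose from 293.0 ± 3.75 to 333.0 ± 0.516 CPM (0.19, 0.000101). IFITM2, a membrane protein that blocks viral entry and is alike in sequence to its neighbours, fell by 0.25 on the log2 scale (edgeR adjusted p = 7.5e-05). SAMD9 fell from 5.23 ± 0.396 to 3.59 ± 0.199 CPM (-0.54, edgeR adjusted p = 0.000337), LAMP3 fell by 0.30 on the log2 scale (0.000685), and the GTPase gene GBP2 fell by 1.74 on the log2 scale (0.00064), from 20 to 37 counts per control library to 5 to 10. ADAR was also higher at 0.01, 0.1, 1 and 10 µM, by 0.17, 0.20, 0.17 and 0.15 (edgeR adjusted p = 0.00249, 0.000379, 0.00653 and 0.0199), which share the controls, and against 0.001 to 1 µM its log2 change at 100 µM was 0.02 (edgeR adjusted p = 0.638).

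Of 21 antigen presentation genes, 15 were tested, and 2 rose and 2 fell. The peptide transporter gene TAP2 rose from 10.5 ± 0.223 to 14.6 ± 0.666 CPM (log2 change 0.48, edgeR adjusted p = 1.27e-05) and the proteasome activator gene PSME1 rose by 0.17 (0.0159), the latter without a call against 0.001 to 1 µM (log2 change 0.02, edgeR adjusted p = 0.767). HLA-E, a class I molecule, fell by 0.20 on the log2 scale (edgeR adjusted p = 0.00132), and TAPBP, which loads peptides onto class I molecules, by 0.19 (0.00285). These counts are read against the 27.3% of all genes that changed at this dose. TAPBP was higher than control at 0.01 and 0.1 µM, by 0.25 and 0.27 (edgeR adjusted p = 0.000713 and 0.000207), so its direction differed between doses. Over the 6 pathway lists, at most 5 genes of a list were called at a dose below 100 µM. These were 5 of the 34 other effectors tested, at 0.1 µM, where 6.45% of all genes tested changed. Below 100 µM all called genes were higher except IRF2BP2 at 1 µM (log2 change -0.18, edgeR adjusted p = 0.0313), named after its value was seen. All of these comparisons share the same 3 control libraries.

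**Figure D4:**
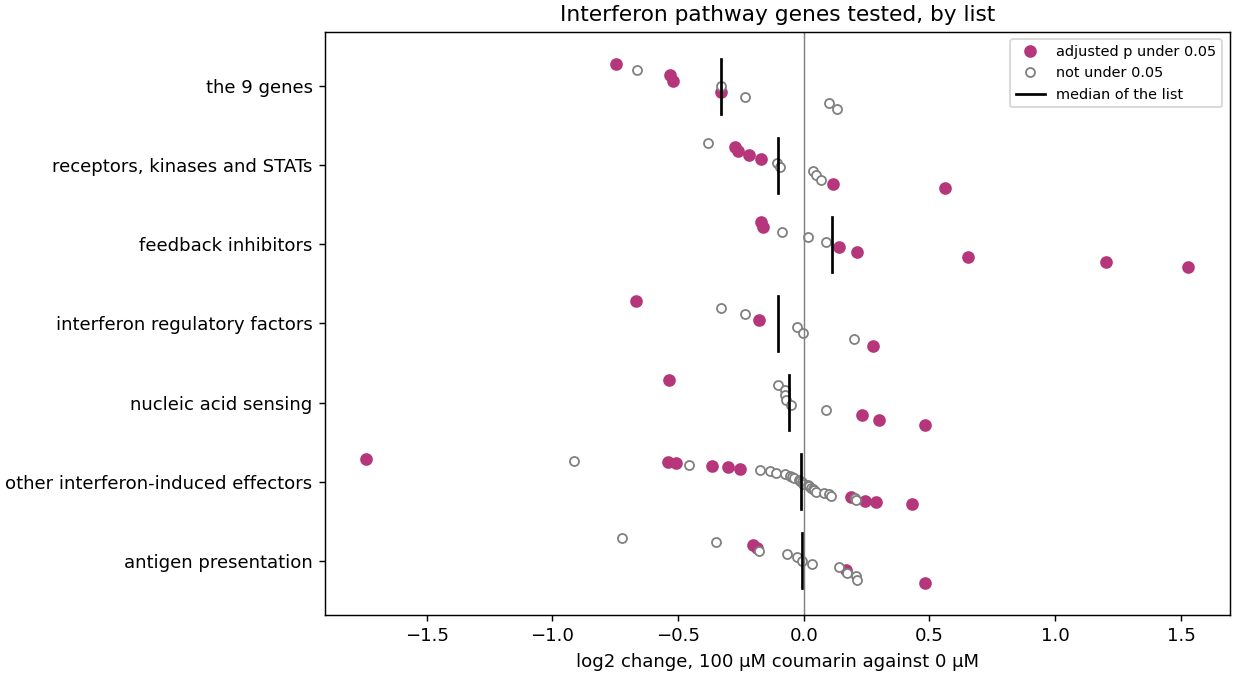
log2 change at 100 µM against 0 µM for each tested gene (points) of the 9 interferon-induced genes and 6 pathway lists; filled points have an adjusted p under 0.05 and black lines are list medians. The 9 genes have the lowest median (-0.33, the value of IRF1, which did not pass), and the feedback inhibitors the highest (0.11). Every list has genes on both sides of 0.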

How the data were processed

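Groups follow the labelled dose, and the 9 genes and the gene lists were chosen with earlier results of these data known. The authors deposited whole-number read counts per gene and a second table of FPKM. The submitters' processing notes name HISAT2, DESeq2 and GRCh38 with no versions; neither the counter, its strand setting nor the library total used for FPKM is given in the sources used here. The test used edgeR 4.0.16 in R 4.3.3: filterByExpr, TMM scaling and the robust quasi-likelihood test on 21 libraries in 1 fit (14 residual degrees of freedom), two-sided except for the 7 groups, with Benjamini-Hochberg adjustment over 16699 genes. "Rose" and "fell" are used of an adjusted p under 0.05. A trend with log10 dose was fitted in the 18 treated libraries. CPM use TMM-scaled library sizes, correlations use a prior count of 2, and intervals are 95%. Totals limit precision, and floors of 3 counts cover counting error only. Alternatives were RLE and upper-quartile scaling, other filters, DESeq2 1.42.0, limma 3.58.1 on log2 of FPKM plus 1 (which understates changes of low genes), the replicate number as a block, other references, a fit of 2 groups, and each library left out in turn. Named from each list were all genes passing at 100 µM when at most 6 did, otherwise the 6 with the smallest p, plus the tested receptors, kinases and STATs, of which 1 is not reported here; the 3 genes most like IFIT1 and the 1 most like each other gene were also named. Promoters come from RefSeq (GRCh38.p14). Scripts were tested on simulated data.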

Additional observations from a re-analysis of the deposited data

How the results depend on the processing

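Of the 9 genes, 4 were lower at 100 µM; 2 were (IFIT1 and IFIT2) at an adjusted p under 0.01, and 2 to 3 when 1 of the 6 libraries was left out, the lowest without control replicate 3 or 100 µM replicate 3, where IFIT1 and IFIT2 remained. IFIT1 (edgeR, DESeq2 and limma adjusted p 2.45e-10 to 0.000128) passed in all 11 other settings and all 6 leave-outs, and so did IFIT2 (0.000707 to 0.012). IFI6 was lost in 5 of 11 settings and 5 of 6 leave-outs (adjusted p 0.0109 to 0.211) and IFIT3 in 2 of 11 and 4 of 6 (0.0151 to 0.222). The test of 7 groups called 3 genes, 1 at an adjusted p under 0.01, and 1 to 3 with 1 of 21 libraries left out. Along dose 0 genes were called, but 2 with DESeq2 (IFIT1 and IRF1), 1 with a filter of 1 CPM in 3 libraries (IRF1), and 0 to 1 with 1 library left out. For all treated groups 0 were called, and 0 to 1 with 1 library left out (IFIT2, without 10 µM replicate 2). Directions reversed for IRF9 against 0.001 to 1 µM (0.000636) and for MX1 without control replicate 1 (-0.106) or 100 µM replicate 3 (-0.424; -0.424 to 0.433 over its 6 leave-outs), neither called; the cause was not tested. Deviations from group means were compared in 18 pairs of a control and a treated library with the same replicate number. In 0 of 18 pairs was r over 0.1 (r -0.0994 to 0.0515), and 9 of 21 libraries were closest to their own number. The pairs show no sign that treated libraries pair with controls, but pairs of treated libraries were not among the 18. With the replicate block 4 members were lower at 100 µM and 3 differed across 7 groups, and the block changed no other call of a member. With 1 of 6 libraries left out, the log2 change at 100 µM was -1.27 to -0.42 for OAS1 and 0.0252 to 0.213 for ISG15, and limma on FPKM gave -0.0315 for OAS1. Depth limits MX1 and OAS1, with at most 27 and 21 counts per library.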
